A study of Mus musculus with 25 samples.

Results

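The 28 genes described here encode the enzymes and regulators of cholesterol synthesis (21 genes, called sterol genes below) and of fatty acid synthesis (7 genes), in the colon of mice before, during and after dextran sulfate sodium (DSS) colitis. They were taken by name from a list drawn up with earlier results of these data known, and they are 28 of the 25463 genes tested. The sterol genes are Hmgcs1, Mvk, Pmvk, Mvd, Idi1, Fdps, Fdft1, Sqle, Lss, Cyp51, Tm7sf2, Msmo1, Nsdhl, Hsd17b7, Ebp, Sc5d, Dhcr7, Acat2, Insig1, Srebf2 and Stard4, and the fatty acid genes are Srebf1, Acly, Acss2, Acaca, Fasn, Elovl6 and Scd1. All 28 were on the array, and the probe that stood for each was well above background on all 25 arrays and saturated on none. Msmo1 carries its older name Sc4mol in the files. Of the 7 fatty acid genes, Srebf1, Fasn, Acaca and Acly lie on chromosome 11 of GRCm38.p6.

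Colon RNA came from female mice aged 8 weeks on the C57BL/6j strain, kept in specific-pathogen-free housing, 1 mouse per array. The label Card9-/- names mice without a working gene for CARD9, an adaptor of immune cells that carries signals from receptors for fungi, and their comparison group was wild type (WT). All mice but those of day 0 drank 2% (w/v) DSS, a sulfated sugar polymer that injures the colon lining, for 7 days, and the mice of day 12 then drank plain water for 5 days. Day 0 had 3 Card9-/- and 3 WT arrays, day 7 had 4 Card9-/- and 5 WT arrays, and day 12 had 5 arrays of each genotype. The design text names 5 Card9-/- mice at day 7, and 1 of them is not analysed here. Which part of Card9 was removed, in which cells, and whether the genotypes were littermates are not stated in the labels. By its title the series concerns CARD9, the gut microbiota and colitis, and the comparisons below follow the genes of lipid synthesis through injury and recovery in each genotype. The colon was measured whole, so fewer cells of a type and less RNA per cell cannot be told apart.

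Cholesterol is built from acetyl-CoA through mevalonate, isoprenoid diphosphates, squalene and lanosterol, and fatty acids are built from the same acetyl-CoA through malonyl-CoA. Transcription of both sets is driven by the sterol regulatory element-binding proteins, of which SREBP-2, the product of Srebf2, acts mainly on sterol genes and SREBP-1, the product of Srebf1, mainly on fatty acid genes. When membranes hold enough sterol, INSIG proteins keep the SREBPs and their escort SCAP in the endoplasmic reticulum, and the target genes are transcribed less. In the intestine these enzymes are active in the epithelium, where dividing crypt cells need new membrane.

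SREBPs bind DNA weakly alone and act together with NF-Y, which binds the box CCAAT. On the opposite strand this box reads ATTGG. RefSeq promoter windows of GRCm38.p6 were found for 23 of the 28 genes, all but Sqle, Fdps, Stard4, Fdft1 and Scd1, and the 250 bases before each annotated start site were searched on both strands. These were 28 windows, since Pmvk, Dhcr7 and Srebf1 had several, and 17 of the genes had one at the outer end of the gene. The window of Acaca lay 65803 bases inside the gene, that of Fasn 619 bases and the nearest of Srebf1 1605 bases, while those of Mvk, Lss and Hsd17b7 lay 5 to 40 bases inside. Further windows lay 5030 bases inside Pmvk and 232 and 7047 bases inside Dhcr7. CCAAT stood in 16 of 17 sterol genes (94.1%) and in 3 of 6 fatty acid genes, against 37.5% of all 27025 genes with a window. The sterol element TCACNCCAC stood in 1 of the 17 sterol genes, against 1.22% of all genes, and the E-box CACGTG stood in 4 of the 17 (23.5%), against 6.86%. For Dhcr7, CCAAT stood only in the window 7047 bases inside the gene and CACGTG only in the one 232 bases inside. These are matches of letters and were not tested. The windows of 5 genes that fell at day 7 are printed 5′ to 3′ on the strand of the gene and end at the base before its start: Hmgcs1 at chr13:119690101-119690350 (plus strand), the window with both the sterol element and CCAAT boxes, and Idi1 at chr13:8885506-8885605 (plus), Cyp51 at chr5:4104698-4104797 (minus), Tm7sf2 at chr19:6067851-6067950 (minus) and Nsdhl at chrX:72918421-72918520 (plus), which fell in both genotypes. Capitals mark the box on either strand and, in Hmgcs1, the sterol element TCACCCCAC.
Hmgcs1: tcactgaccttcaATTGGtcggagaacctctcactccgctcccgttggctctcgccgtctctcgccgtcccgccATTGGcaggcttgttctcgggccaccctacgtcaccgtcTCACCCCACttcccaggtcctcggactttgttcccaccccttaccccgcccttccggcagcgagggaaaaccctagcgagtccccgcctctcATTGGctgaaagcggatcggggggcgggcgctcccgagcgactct
Idi1: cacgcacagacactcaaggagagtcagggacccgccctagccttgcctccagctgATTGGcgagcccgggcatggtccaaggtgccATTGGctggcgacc
Cyp51: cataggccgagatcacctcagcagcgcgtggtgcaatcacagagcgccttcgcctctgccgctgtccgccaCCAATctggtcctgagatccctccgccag
Tm7sf2: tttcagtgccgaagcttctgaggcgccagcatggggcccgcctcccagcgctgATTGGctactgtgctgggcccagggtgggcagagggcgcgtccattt
Nsdhl: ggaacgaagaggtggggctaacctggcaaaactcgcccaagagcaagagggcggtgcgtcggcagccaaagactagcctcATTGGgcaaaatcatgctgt

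The Hmgcs1 window holds 3 ATTGG boxes, with the sterol element between the second and the last of them, and the windows of Idi1, Cyp51, Tm7sf2 and Nsdhl hold 1 or 2 boxes in the bases shown and no sterol element of this spelling. Acat2, Acaca, Acly and Elovl6 had no CCAAT in any window searched.

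Signals are given as log2 of the processed intensity after subtracting the log2 75th percentile of the same array. That percentile lay between 196 and 661 units, with 46.5% to 67.1% of probes well above background. A gene was called changed where its limma p, adjusted over all genes of the comparison by the Benjamini-Hochberg method, was under 0.05. The Card9 probe was brighter on the arrays labelled Card9-/- (means of -1.20, -0.58 and -0.94 at days 0, 7 and 12) than on those labelled WT (-6.06, -5.43 and -5.74, well above background on 0, 1 and 1 arrays), against the direction that the labels would give if the probe lay in the deleted part. Whether it does was not tested, so Card9-/- and WT mean throughout the arrays labelled so, and the direction of every difference between genotypes rests on those labels. Some libraries stood apart. Genes of pancreatic acinar cells, given as the mean log2 signal over 14 genes minus its WT day 0 mean, were at 12.66 or more on Card9-/- day 7 replicates 2 and 3, 11.87 on Card9-/- day 12 replicate 1 and 6.12 on WT day 12 replicate 5. Anterior Hox genes, which mark more proximal gut, were at 2.54 and 2.20 on Card9-/- day 0 replicates 1 and 2. They were at 2.36 on WT day 7 replicate 1, against at most 1.04 elsewhere. The 6 posterior Hox genes were at -1.115 and -0.925 on these Card9-/- arrays, with 3 and 2 of the 6 well above background. On WT day 7 replicate 1 they were at 2.646, with 6 of 6, so that array was high in both lists. Some counts of called sterol and fatty acid genes are also given without these sets of arrays, and most other results with all arrays only.

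Sterol synthesis was first followed into injury, as day 7 against day 0. At day 7, 8 of the 21 sterol genes had fallen against day 0 on the Card9-/- arrays and 10 of 21 on the WT arrays. In Card9-/- colon the calls were Idi1, Fdps, Cyp51, Tm7sf2, Nsdhl, Dhcr7, Insig1 and Stard4, beside a background of 12.7% of all genes called lower. In WT colon they were Hmgcs1, Mvk, Idi1, Fdps, Fdft1, Sqle, Lss, Cyp51, Tm7sf2 and Nsdhl, beside a background of 2.32%. Idi1, Fdps, Cyp51, Tm7sf2 and Nsdhl fell in both. Over the 21 genes the median day 7 signal was 78.8% of day 0 in Card9-/- and 68.0% in WT.

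The median log2 change of the sterol genes was -0.34 in Card9-/- colon and -0.56 in WT colon, against -0.08 and 0.03 over all genes tested. It was negative for 19 of 21 genes in Card9-/- and for 21 of 21 in WT. Day 7 values lay wholly below day 0 values for 6 of the 21 in Card9-/- (background 18.1%) and for 12 of the 21 in WT (background 7.23%). Averaged over the 21 genes and set against the WT day 0 mean, the Card9-/- arrays had -0.39, -0.09 and -0.07 at day 0, -0.56, -0.29, -0.55 and -0.64 at day 7, and 0.03, -0.05, -0.27, -0.22 and -0.07 at day 12. The WT arrays had 0.08, 0.10 and -0.18 at day 0, -0.56, -0.55, -0.54, -0.43 and -0.60 at day 7, and -0.19, -0.21, -0.29, -0.27 and -0.32 at day 12. In WT the 3 days did not overlap, but the lowest day 0 array (-0.175) and the highest day 12 array (-0.191) nearly met. In Card9-/- the highest day 7 array, replicate 2, lay above the lowest day 0 array, replicate 1. That day 0 array was the lowest of its group for 17 of the 21 sterol genes, and that day 7 array the highest of its group for 16.

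**Figure D1:**
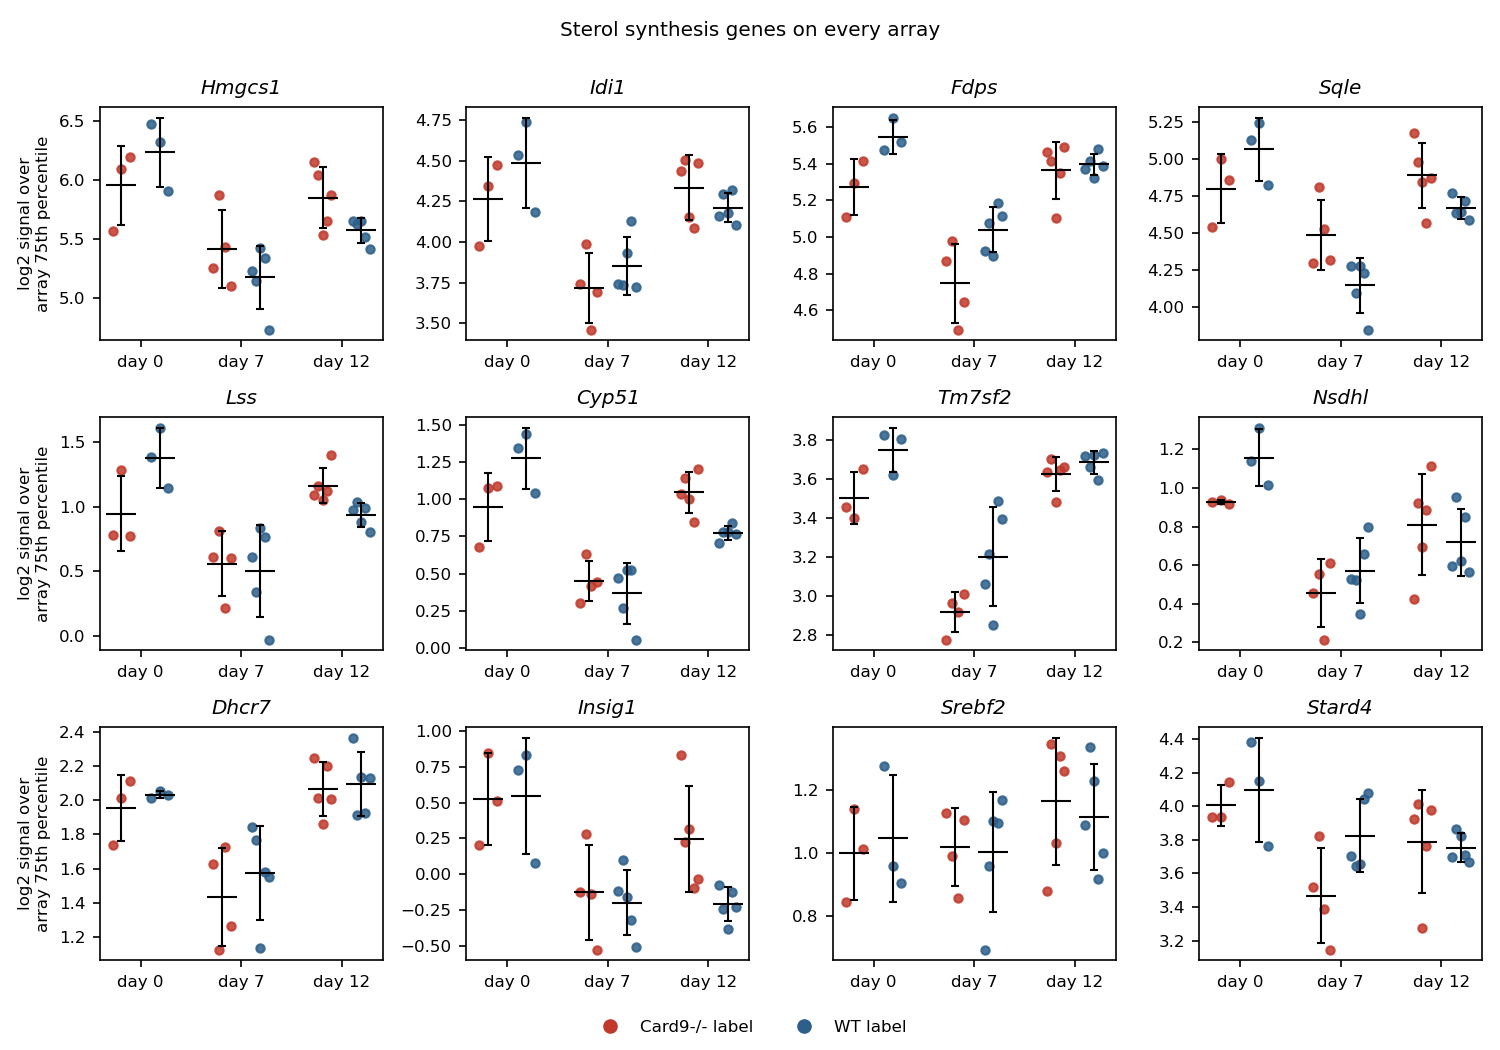
Log2 signal, with the array's 75th percentile at 0, for 12 sterol genes on every array, Card9-/- label (red) left of WT label (blue) at days 0, 7 and 12. Points are arrays, the long bar is the group mean and the error bar its SD (n = 3 to 5). Most panels dip at day 7; all day 7 arrays of Tm7sf2 lie below the day 0 and day 12 arrays of their genotype, and the groups of Srebf2 overlap.

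Early in the pathway, Hmgcs1 makes HMG-CoA, a precursor of mevalonate. Hmgcs1 had log2 signals on the Card9-/- arrays of 5.57, 6.10 and 6.20 at day 0, 5.26, 5.88, 5.43 and 5.11 at day 7 and 6.15, 6.05, 5.53, 5.66 and 5.88 at day 12. In WT, Hmgcs1 had 6.48, 6.33 and 5.91 at day 0, 5.23, 5.14, 5.43, 5.34 and 4.73 at day 7 and 5.65, 5.63, 5.65, 5.52 and 5.42 at day 12. The WT day 7 arrays all lay below the WT day 0 arrays, whereas Card9-/- day 7 replicate 2 lay above the lowest day 0 array of its genotype. Hmgcs1 fell in WT to 47.9% of day 0 (log2 change -1.06 ± 0.19 (SE), limma adjusted p = 0.00349), and in Card9-/- its change was -0.54 ± 0.20 (adjusted p = 0.0677). Acat2, which joins 2 acetyl-CoA in the cytosol, had changes of -0.08 ± 0.20 in Card9-/- and -0.44 ± 0.20 in WT, neither called. Mvk, the kinase of mevalonate, fell in WT by 0.56 ± 0.13 (adjusted p = 0.0205), and its change in Card9-/- was -0.34 ± 0.14. The next kinase, Pmvk, had -0.03 ± 0.12 and -0.13 ± 0.11, and the decarboxylase Mvd had -0.32 ± 0.18 and -0.56 ± 0.18, in Card9-/- and WT, none of them called.

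Idi1 interconverts the isoprenoid building blocks. Idi1 had log2 signals on the Card9-/- arrays of 3.98, 4.34 and 4.48 at day 0, 3.74, 3.99, 3.46 and 3.69 at day 7 and 4.44, 4.51, 4.16, 4.09 and 4.49 at day 12. In WT, Idi1 had 4.53, 4.74 and 4.19 at day 0, 3.74, 3.74, 3.93, 4.13 and 3.72 at day 7 and 4.16, 4.29, 4.18, 4.32 and 4.11 at day 12. Every WT day 7 array lay below every WT day 0 array, and in Card9-/- the highest day 7 array and the lowest day 0 array met. Idi1 fell to 68.5% of day 0 in Card9-/- (log2 change -0.55 ± 0.16, limma adjusted p = 0.0168) and to 64.4% in WT (-0.63 ± 0.15, adjusted p = 0.0180). Fdps joins these units into farnesyl diphosphate, the branch point to sterols and to lipid anchors of proteins. Fdps had log2 signals on the Card9-/- arrays of 5.11, 5.30 and 5.42 at day 0, 4.87, 4.98, 4.49 and 4.65 at day 7 and 5.47, 5.41, 5.10, 5.35 and 5.49 at day 12. In WT, Fdps had 5.47, 5.65 and 5.52 at day 0, 4.92, 5.07, 4.90, 5.19 and 5.12 at day 7 and 5.37, 5.42, 5.32, 5.48 and 5.39 at day 12. Day 7 lay below day 0 on all arrays of both genotypes. The fall was to 69.3% of day 0 in Card9-/- (log2 change -0.53 ± 0.12, limma adjusted p = 0.00330) and to 70.4% in WT (-0.51 ± 0.11, adjusted p = 0.0132).

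The enzymes that commit farnesyl diphosphate to sterols fell in WT. Squalene synthase, Fdft1, fell there by 0.66 ± 0.16 on the log2 scale (limma adjusted p = 0.0188), squalene epoxidase, Sqle, to 52.9% of day 0 (log2 change -0.92 ± 0.15, adjusted p = 0.00119) and lanosterol synthase, Lss, to 54.5% (-0.88 ± 0.18, adjusted p = 0.00685). In Card9-/- their changes were -0.15 ± 0.16, -0.31 ± 0.15 and -0.39 ± 0.18, with adjusted p of 0.616, 0.177 and 0.159. The difference in change between genotypes, Card9-/- minus WT, was 0.51 ± 0.23 for Fdft1, 0.61 ± 0.21 for Sqle and 0.49 ± 0.26 for Lss, and it was not called for any of them (adjusted p = 0.386, 0.275 and 0.476). Calls in WT alone therefore do not show that the genotypes differed.

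Cyp51 removes a methyl group from lanosterol and Tm7sf2 reduces the product. Cyp51 had log2 signals on the Card9-/- arrays of 0.68, 1.07 and 1.09 at day 0, 0.31, 0.64, 0.42 and 0.45 at day 7 and 1.03, 1.14, 1.00, 0.85 and 1.20 at day 12. In WT, Cyp51 had 1.34, 1.43 and 1.04 at day 0, 0.47, 0.27, 0.52, 0.53 and 0.06 at day 7 and 0.71, 0.78, 0.78, 0.84 and 0.76 at day 12. Day 7 lay below day 0 on all arrays of both genotypes, and the WT day 12 arrays lay between the other days. Cyp51 fell to 70.9% of day 0 in Card9-/- (log2 change -0.50 ± 0.13, limma adjusted p = 0.0107) and to 53.5% in WT (-0.90 ± 0.13, adjusted p = 0.000359). Tm7sf2 had log2 signals on the Card9-/- arrays of 3.46, 3.40 and 3.65 at day 0, 2.78, 2.97, 2.92 and 3.01 at day 7 and 3.64, 3.70, 3.48, 3.64 and 3.66 at day 12. In WT, Tm7sf2 had 3.82, 3.62 and 3.80 at day 0, 3.06, 3.21, 2.85, 3.49 and 3.40 at day 7 and 3.72, 3.66, 3.72, 3.59 and 3.73 at day 12. The day 7 arrays of both genotypes lay below all of their day 0 and day 12 arrays. Tm7sf2 fell to 66.7% in Card9-/- (-0.58 ± 0.12, limma adjusted p = 0.00169) and to 68.5% in WT (-0.55 ± 0.12, adjusted p = 0.00917).

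Msmo1, Nsdhl and Hsd17b7 strip the remaining extra methyl groups. Nsdhl had log2 signals on the Card9-/- arrays of 0.93, 0.94 and 0.92 at day 0, 0.45, 0.55, 0.21 and 0.61 at day 7 and 0.42, 0.92, 0.70, 0.89 and 1.12 at day 12. In WT, Nsdhl had 1.14, 1.31 and 1.02 at day 0, 0.53, 0.52, 0.35, 0.66 and 0.80 at day 7 and 0.60, 0.95, 0.62, 0.85 and 0.57 at day 12. Day 7 lay below day 0 without overlap in both genotypes, and the day 12 arrays spread over both ranges in Card9-/- and stayed below the day 0 range in WT. Nsdhl fell to 72.2% in Card9-/- (-0.47 ± 0.15, limma adjusted p = 0.0271) and to 66.6% in WT (-0.59 ± 0.14, adjusted p = 0.0198). Msmo1 had 0.07 ± 0.18 and -0.52 ± 0.17, and Hsd17b7 had -0.12 ± 0.19 and -0.60 ± 0.18, in Card9-/- and WT, none called. Of the enzymes of the last steps, the isomerase Ebp (-0.22 ± 0.15 and -0.11 ± 0.15) and the desaturase Sc5d (-0.08 ± 0.12 and -0.11 ± 0.12) were not called. Dhcr7, the reductase that ends the pathway, fell in Card9-/- by 0.52 ± 0.17 (adjusted p = 0.0313) and had -0.46 ± 0.16 in WT (adjusted p = 0.113).

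Among the regulators, Srebf2 gave no call. Srebf2 had log2 signals on the Card9-/- arrays of 0.84, 1.14 and 1.01 at day 0, 1.13, 0.99, 0.86 and 1.10 at day 7 and 0.88, 1.35, 1.03, 1.31 and 1.26 at day 12. In WT, Srebf2 had 1.28, 0.96 and 0.90 at day 0, 0.69, 0.96, 1.10, 1.09 and 1.17 at day 7 and 1.09, 1.33, 1.23, 0.92 and 1.00 at day 12. All groups overlapped, and the day 7 change was 0.02 ± 0.14 in Card9-/- and -0.04 ± 0.14 in WT (95% intervals -0.27 to 0.32 and -0.33 to 0.24). Insig1 is itself a target of the SREBPs and holds them back. Insig1 had log2 signals on the Card9-/- arrays of 0.21, 0.85 and 0.52 at day 0, -0.13, 0.28, -0.14 and -0.53 at day 7 and 0.83, 0.22, 0.32, -0.10 and -0.04 at day 12. In WT, Insig1 had 0.73, 0.83 and 0.08 at day 0, -0.12, 0.10, -0.16, -0.32 and -0.51 at day 7 and -0.08, -0.24, -0.38, -0.12 and -0.23 at day 12. Card9-/- day 7 replicate 2 and WT day 7 replicate 2 reached into the day 0 ranges. Insig1 fell in Card9-/- to 63.7% of day 0 (-0.65 ± 0.23, limma adjusted p = 0.0462) and had -0.75 ± 0.22 in WT (adjusted p = 0.0521). Stard4, which carries cholesterol between membranes, fell in Card9-/- by 0.54 ± 0.18 (adjusted p = 0.0419) and had -0.27 ± 0.17 in WT.

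The number of sterol genes called lower at day 7 in Card9-/- depended on single arrays. It was 2 without Card9-/- day 0 replicate 2 or without replicate 3, 4 and 5 without Card9-/- day 7 replicate 3 or 4, and 2 without the 3 arrays high in anterior Hox genes, against 8 with all arrays. In WT it was 6 without WT day 0 replicate 1 and 4 without replicate 2, against 10. On the slides that held both days, 20 and 18 of 21 sterol genes were lower at day 7 in Card9-/-, and 20, 17 and 20 of 21 in WT.

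Fatty acid genes were lower at day 7 as well, with more calls in Card9-/- than in WT. Against day 0, 5 of the 7 had fallen in Card9-/- colon (Srebf1, Fasn, Acaca, Elovl6 and Acss2, background 12.7%) and 1 of 7 in WT (Fasn, background 2.32%). Their median log2 change was -0.50 in Card9-/- and -0.40 in WT, and all 7 were negative in both. The difference in change between genotypes was called for 0 of the 7 with limma (0.00393% of all genes), and 0 had an unadjusted p under 0.05. Day 7 lay wholly below day 0 for 3 of the 7 in Card9-/- (background 18.1%) and for 5 of the 7 in WT (background 7.23%).

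**Figure D2:**
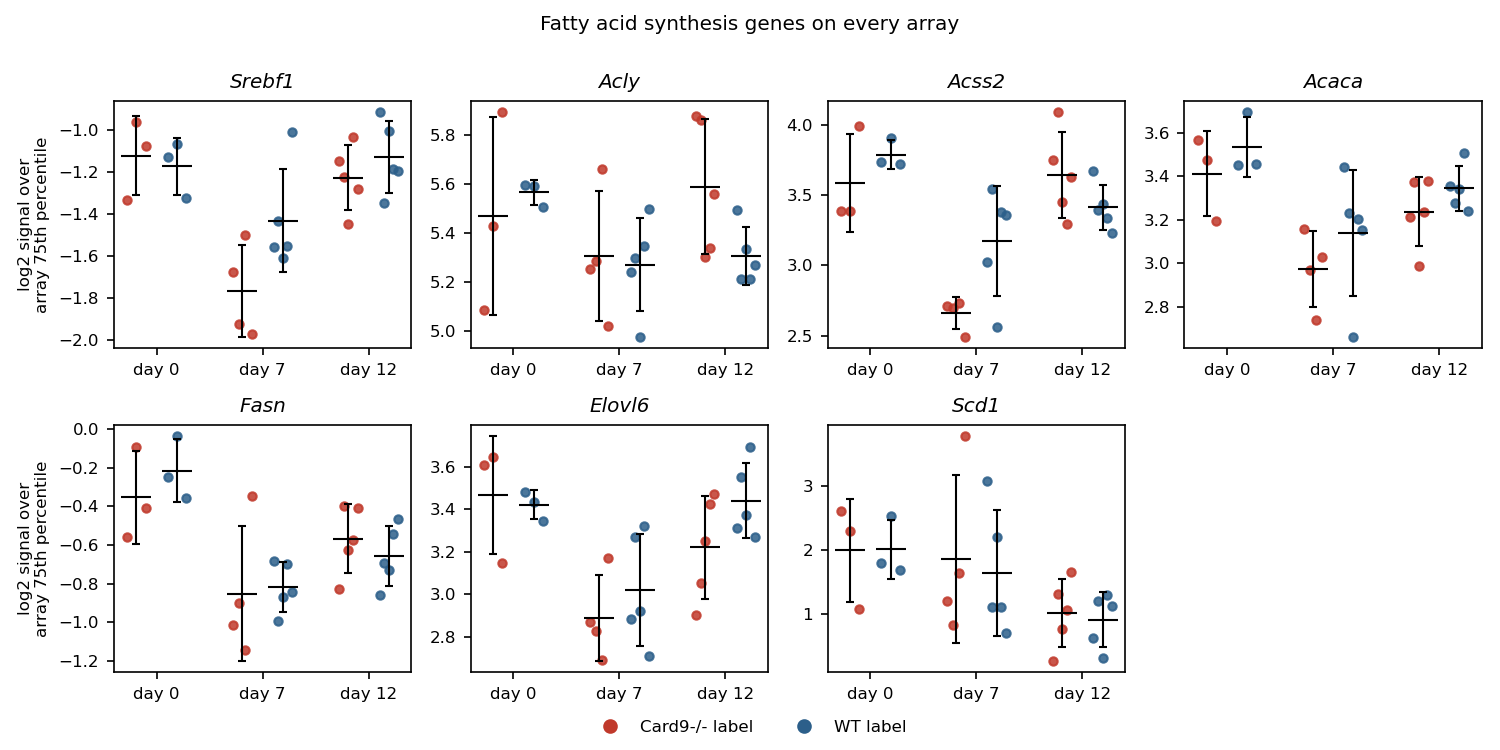
Log2 signal, with the array's 75th percentile at 0, for the 7 fatty acid genes on every array, Card9-/- label (red) left of WT label (blue) at days 0, 7 and 12. Points are arrays, the long bar is the group mean and the error bar its SD (n = 3 to 5). The 4 Card9-/- day 7 arrays of Acss2 lie between 2.49 and 2.73, below every other array but 1 of WT day 7, and Scd1 spreads widely within groups.

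Srebf1 encodes the regulator of this set. Srebf1 had log2 signals on the Card9-/- arrays of -1.33, -0.96 and -1.08 at day 0, -1.68, -1.92, -1.50 and -1.97 at day 7 and -1.15, -1.22, -1.45, -1.04 and -1.28 at day 12. In WT, Srebf1 had -1.13, -1.07 and -1.33 at day 0, -1.56, -1.43, -1.61, -1.55 and -1.01 at day 7 and -0.92, -1.35, -1.01, -1.19 and -1.20 at day 12. All Card9-/- day 7 arrays lay below the Card9-/- arrays of the other days, while WT day 7 replicate 5 was brighter than every WT day 0 array. Srebf1 fell to 64.0% of day 0 in Card9-/- (log2 change -0.64 ± 0.15, limma adjusted p = 0.00482) and had -0.26 ± 0.15 in WT (adjusted p = 0.393). Acss2 turns acetate, a product of gut bacteria among other sources, into acetyl-CoA. Acss2 had log2 signals on the Card9-/- arrays of 3.39, 3.39 and 3.99 at day 0, 2.71, 2.70, 2.73 and 2.49 at day 7 and 3.75, 4.09, 3.45, 3.30 and 3.63 at day 12. In WT, Acss2 had 3.73, 3.90 and 3.72 at day 0, 3.02, 3.54, 2.56, 3.38 and 3.36 at day 7 and 3.67, 3.39, 3.43, 3.34 and 3.23 at day 12. Day 7 lay below day 0 in both genotypes, narrowly spread in Card9-/- and widely in WT. Acss2 fell to 52.4% of day 0 in Card9-/- (-0.93 ± 0.21, limma adjusted p = 0.00306), while in WT the change was -0.61 ± 0.20 (adjusted p = 0.0842). Acly, which makes acetyl-CoA from citrate, had -0.16 ± 0.18 and -0.29 ± 0.17 in Card9-/- and WT, neither called.

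Acaca makes malonyl-CoA and Fasn builds the chain from it. Acaca had log2 signals on the Card9-/- arrays of 3.57, 3.48 and 3.20 at day 0, 3.16, 2.97, 2.74 and 3.03 at day 7 and 3.22, 3.37, 2.99, 3.23 and 3.38 at day 12. In WT, Acaca had 3.45, 3.70 and 3.46 at day 0, 3.45, 3.23, 2.66, 3.20 and 3.15 at day 7 and 3.35, 3.28, 3.34, 3.51 and 3.24 at day 12. Card9-/- and WT day 7 arrays lay below their day 0 arrays, in each case by a small gap. Acaca fell in Card9-/- to 73.7% of day 0 (-0.44 ± 0.15, limma adjusted p = 0.0444) and had -0.40 ± 0.14 in WT (adjusted p = 0.133). Fasn had log2 signals on the Card9-/- arrays of -0.56, -0.09 and -0.41 at day 0, -1.02, -0.90, -1.14 and -0.35 at day 7 and -0.83, -0.40, -0.63, -0.57 and -0.41 at day 12. In WT, Fasn had -0.25, -0.04 and -0.36 at day 0, -0.68, -0.99, -0.87, -0.70 and -0.84 at day 7 and -0.86, -0.69, -0.73, -0.54 and -0.47 at day 12. In Card9-/-, day 7 replicate 4 lay among the day 0 arrays, and in WT day 7 lay below day 0 on all arrays. Fasn fell to 70.8% in Card9-/- (-0.50 ± 0.16, limma adjusted p = 0.0354) and to 65.9% in WT (-0.60 ± 0.16, adjusted p = 0.0302). Elovl6, which lengthens the chain, fell in Card9-/- by 0.58 ± 0.17 (adjusted p = 0.0209) and had -0.40 ± 0.16 in WT (adjusted p = 0.198).

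These calls also rested on few arrays. Of the 5 in Card9-/-, 3 were left without day 0 replicate 1 or day 7 replicate 2 and 2 without day 0 replicate 2 or day 7 replicate 3, while 2 were left without the 4 arrays with acinar genes and 1 without the 3 arrays high in anterior Hox genes. The Fasn call in WT was lost without any 1 WT day 0 array or without WT day 7 replicate 2 or 3.

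Scd1, which puts the first double bond into fatty acids, spread widely within groups. Scd1 had log2 signals on the Card9-/- arrays of 2.60, 2.30 and 1.08 at day 0, 1.19, 0.83, 1.63 and 3.77 at day 7 and 0.26, 1.30, 0.76, 1.05 and 1.66 at day 12. In WT, Scd1 had 1.80, 2.53 and 1.68 at day 0, 3.08, 1.10, 2.20, 1.11 and 0.70 at day 7 and 0.62, 1.20, 0.31, 1.29 and 1.13 at day 12. Single arrays of day 7 in each genotype were the brightest of all 25, most of the other day 7 arrays lay in the range of the day 12 arrays, and the day 12 arrays reached 1.66 at most. Scd1 had day 7 changes of -0.14 ± 0.60 in Card9-/- and -0.37 ± 0.58 in WT, and day 12 against day 7 changes of -0.85 ± 0.53 and -0.73 ± 0.50, none called. The mean of 11 adipocyte genes, relative to WT day 0, was 1.07 on Card9-/- day 7 replicate 4, 1.51 on WT day 7 replicate 1 and 1.05 on Card9-/- day 0 replicate 1, the 3 arrays with the highest Scd1, and it ranged from -1.90 to -0.002 on Card9-/- day 12 arrays and from -1.62 to -0.39 on WT day 12 arrays. Of these 11 genes, 9 to 11 were well above background on each array, Adipoq on all 25, and their part in the Scd1 values was not tested.

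**Figure D3:**
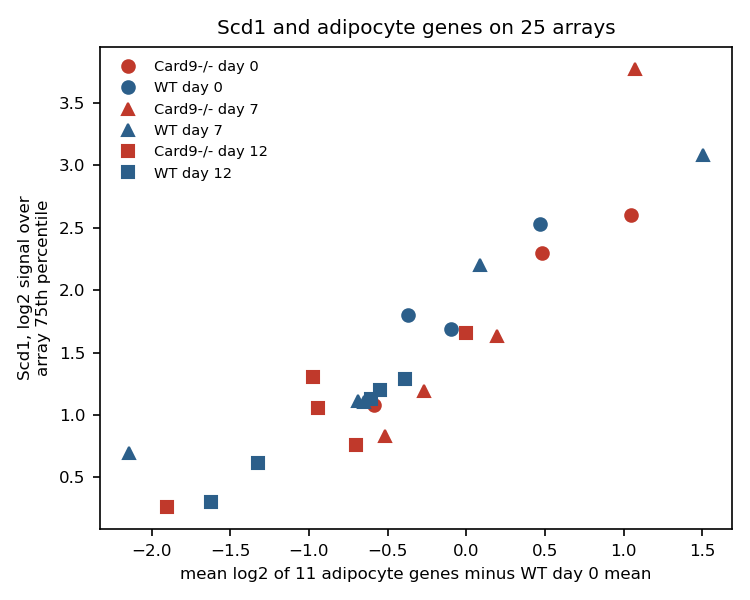
Log2 signal of Scd1 (vertical axis, the array's 75th percentile at 0) against the mean log2 signal of 11 adipocyte genes minus its WT day 0 mean (horizontal axis) on the 25 arrays. Red is the Card9-/- label, blue the WT label, and circles, triangles and squares are days 0, 7 and 12; the 3 arrays with the highest Scd1 (3.77, 3.08 and 2.60) are also the 3 highest in adipocyte genes.

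Recovery was compared as day 12 against day 7. In Card9-/- colon 7 of 21 sterol genes had risen at day 12 (Mvd, Idi1, Fdps, Lss, Cyp51, Tm7sf2 and Dhcr7, background 5.73%), and in WT colon 1 of 21 had (Tm7sf2, background 0.365%). Changes were positive for 21 of 21 sterol genes in Card9-/- (median 0.35, all genes 0.02) and for 19 of 21 in WT (median 0.28, all genes 0.01). Day 12 lay wholly above day 7 for 7 of the 21 in Card9-/- (background 7.68%) and for 6 of the 21 in WT (background 2.94%). Idi1, Fdps, Cyp51, Tm7sf2 and Dhcr7 had both fallen and risen again in Card9-/-.

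The rise in Card9-/- was to 163% of day 7 for Tm7sf2 (log2 change 0.71 ± 0.11, limma adjusted p = 0.00108), 153% for Fdps (0.62 ± 0.10, adjusted p = 0.00208), 151% for Cyp51 (0.60 ± 0.12, adjusted p = 0.00519) and 153% for Idi1 (0.62 ± 0.14, adjusted p = 0.0106). Mvd averaged 2.63 ± 0.21 (SD, n = 5) at day 12 and 1.87 ± 0.34 (n = 4) at day 7, and Dhcr7 averaged 2.06 ± 0.16 and 1.43 ± 0.28, and no day 12 array of either gene overlapped day 7. In WT, Tm7sf2 rose to 140% of day 7 (0.48 ± 0.10, adjusted p = 0.0314), and Sqle (0.52 ± 0.13), Dhcr7 (0.52 ± 0.14) and Cyp51 (0.41 ± 0.11) had adjusted p of 0.0662, 0.0974 and 0.101. Insig1 and Stard4 were the 2 sterol genes without a positive change in WT (-0.01 ± 0.19 and -0.07 ± 0.15). Of the fatty acid genes, Srebf1 (0.54 ± 0.13, adjusted p = 0.0179) and Acss2 (0.99 ± 0.18, adjusted p = 0.00385) rose in Card9-/- at day 12. In WT 0 of 7 passed limma, and 2 had an unadjusted p under 0.05, beside 3344 of 25463 genes.

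Without the 4 arrays with acinar genes, 2 sterol genes and 0 fatty acid genes were called higher at day 12 in Card9-/-, and without Card9-/- day 7 replicate 2 alone 1 fatty acid gene was. The WT call of Tm7sf2 was lost without WT day 7 replicate 2 or 3 or without any 1 WT day 12 array. On the 4 slides, 13, 20, 21 and 21 of 21 sterol genes were higher at day 12 in Card9-/- and 20, 18, 18 and 17 of 21 in WT.

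**Figure D4:**
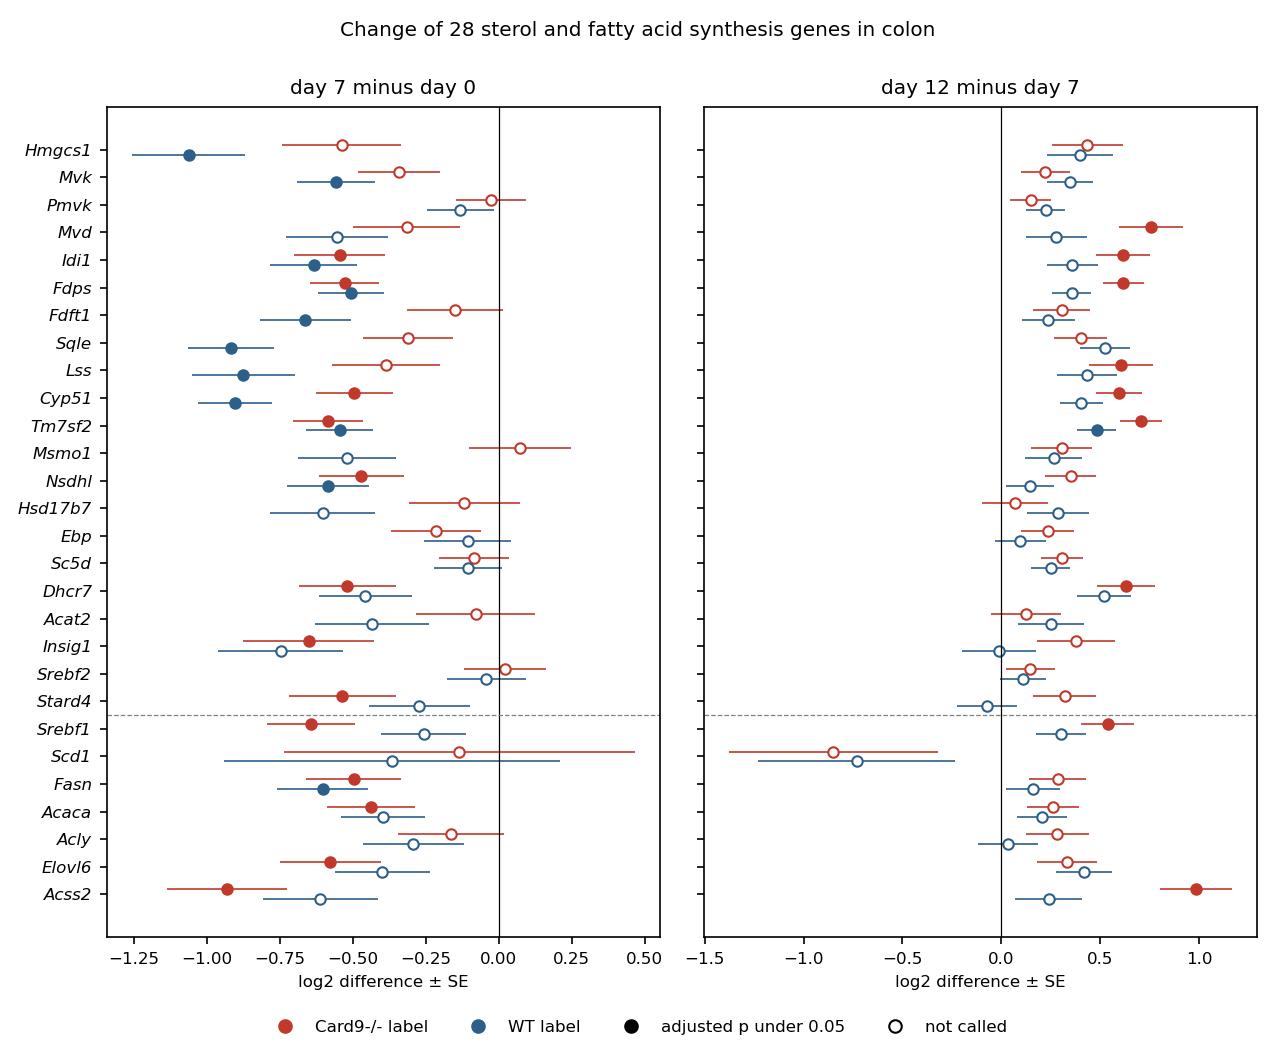
Log2 difference with its SE for each of the 28 genes, day 7 minus day 0 (left) and day 12 minus day 7 (right), Card9-/- label (red) above WT label (blue) on each line. Filled points have a limma adjusted p under 0.05; the dashed line parts the 21 sterol genes (above) from the 7 fatty acid genes. All points but Card9-/- Msmo1 and Srebf2 lie left of 0 in the left panel, and all but Scd1 in both genotypes and WT Insig1 and Stard4 lie right of 0 in the right panel.

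At day 12 against day 0, 0 of the 21 sterol genes were called in Card9-/- with limma, beside 6.96% of all genes called in either direction. An unadjusted p under 0.05 was found for 2 of the 21 there, beside 4827 of 25463 genes. In WT 1 was called, Cyp51, at 70.8% of day 0 (-0.50 ± 0.13, limma adjusted p = 0.0457, background 0.601% called lower). The Cyp51 call was lost without WT day 0 replicate 1 or 2 or any 1 WT day 12 array, and there were 2 calls without WT day 0 replicate 3. Fatty acid genes gave 0 calls in both, with 0 in Card9-/- and 1 in WT at an unadjusted p under 0.05 (all genes 4827 and 3391 of 25463). The median day 12 signal of the sterol genes was 106.4% of day 0 in Card9-/- and 82.6% in WT. That of the fatty acid genes was 88.5% and 83.6%. Without the 3 arrays high in anterior Hox genes, only replicate 3 was left at Card9-/- day 0. The Card9-/- sterol median log2 change was then -0.049, with 13 of 21 negative, against 0.089 and 6 of 21 with all arrays. Genes wholly below day 0 at day 12 in WT, none of them but Cyp51 called, were Hmgcs1, Sqle, Lss, Cyp51, Nsdhl and Insig1 (6 of 21, background 6.92%), and 4 of 7 fatty acid genes (Scd1, Fasn, Acly and Acss2). In Card9-/-, 0 of 21 and 0 of 7 lay wholly below day 0 (background 9.67%). Hmgcs1 was at 63.1% (-0.66 ± 0.19, adjusted p = 0.0878) and Insig1 at 59.1% of day 0 (-0.76 ± 0.22, adjusted p = 0.0765) in WT.

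The genotypes, as labelled, were then compared at each day. With limma, 0 of the 28 genes were called between Card9-/- and WT at day 0, 7 or 12, beside 0.00393%, 0.55% and 0.0707% of all genes. An unadjusted p under 0.05 was found for 3, 8 and 5 of the 28, beside 1266, 4206 and 2253 of 25463 genes. Without WT day 7 replicate 3, 2 sterol genes and 1 fatty acid gene were called at day 7. The median Card9-/- minus WT difference of the sterol genes was -0.21 at day 0, 0.05 at day 7 and 0.10 at day 12, against 0.04, -0.06 and -0.01 over all genes. At day 0, 19 of 21 were lower in Card9-/-, and at day 12, 15 of 21 were higher.

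At day 12, 4 sterol genes were higher on every Card9-/- array than on every WT array, beside 0.884% of all genes. Msmo1 had 6.07, 6.03, 5.90, 5.72 and 5.95 in Card9-/- and 5.71, 5.59, 5.43, 5.47 and 5.35 in WT (log2 difference 0.43 ± 0.15, limma adjusted p = 0.300). Cyp51 had a difference of 0.27 ± 0.11, Hsd17b7 of 0.33 ± 0.16 and Lss of 0.23 ± 0.15, with adjusted p of 0.439, 0.564 and 0.740, so none passed the test. At day 7, Hsd17b7 (0.55 ± 0.17, adjusted p = 0.107) and Sqle (0.34 ± 0.14, adjusted p = 0.208) were higher on every Card9-/- array than on every WT array (2 of 21, background 0.911%). Acss2 (-0.52 ± 0.18, adjusted p = 0.158) and Fdps (-0.29 ± 0.10, adjusted p = 0.161) had negative differences at day 7, with arrays that overlapped. At day 0, Fdps (-0.27 ± 0.13, adjusted p = 0.981) and Nsdhl (-0.23 ± 0.16, adjusted p = 1.000) were lower on every Card9-/- array (2 of 21, background 5.76%).

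The change over time did not pass limma's test of a difference between genotypes for any of the 28 genes, beside 0.00393% of all genes for day 7 against day 0, 0.00785% for day 12 against day 7 and 0.00393% for day 12 against day 0. For day 7 against day 0, 4 of the 28 had an unadjusted p under 0.05, beside 2947 of 25463 genes, so the count was near that of all genes. They were led by Sqle (Card9-/- minus WT 0.61 ± 0.21, limma adjusted p = 0.275) and Msmo1 (0.59 ± 0.24, adjusted p = 0.345). For day 12 against day 7, 2 did, Acss2 (0.75 ± 0.25, adjusted p = 0.50) and Mvd (0.48 ± 0.22, adjusted p = 0.626). That count too was near that of all genes (1964 of 25463). For day 12 against day 0, 6 did, beside 1740 of 25463 genes. These were Mvd, Fdft1, Sqle, Lss, Cyp51 and Msmo1, all sterol genes. The difference was positive for 21 of 21 sterol genes with a median of 0.27, against -0.06 over all genes. Cyp51 had 0.60 ± 0.18 there (adjusted p = 0.547), and the lower Card9-/- levels at day 0 enter this difference. The changes from day 0 to day 7 and to day 12 share the day 0 arrays of their genotype.

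Genes around the pathway were grouped by lists. Of 16 genes of sterol sensing and uptake, 2 fell at day 7 in Card9-/- (12.7% of all genes were called lower) and 1 in WT (2.32%), so the Card9-/- count was near that of all genes. In Card9-/- these were Mbtps1, a protease that frees the SREBPs (-0.31 ± 0.09), and Npc1l1, which takes up cholesterol from the gut lumen, and in WT it was Aacs, which makes acetoacetyl-CoA for lipid synthesis (-0.61 ± 0.14). Npc1l1 was not well above background on any of the 4 Card9-/- day 7 arrays and was so on 2 of the 3 at day 0, so no fold is given. It is a gene of the proximal intestine, and the Card9-/- day 0 group includes the 2 arrays high in anterior Hox genes. The part of these arrays in the Npc1l1 values was not tested.

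A further list held genes of cholesterol export, oxysterols and the liver X receptor. Of 11 measured, 5 rose and 2 fell at day 7 in Card9-/- (6.94% of all genes were called higher and 12.7% lower), and 3 rose in WT (2.02%). Ch25h makes an oxysterol that restrains the SREBPs, and Cyp7b1 turns it into one that attracts immune cells. Both rose in both genotypes, by 2.98 ± 0.55 and 3.71 ± 0.63 on the log2 scale in Card9-/- and by 2.13 ± 0.53 and 2.12 ± 0.60 in WT. These sizes are uncertain, since at day 0 Ch25h was well above background on only 1 of 3 Card9-/- and 2 of 3 WT arrays and Cyp7b1 on 2 of 3 in each. Abcg1 and Abca1, pumps that export cholesterol, rose in Card9-/- by 1.34 ± 0.21 and 1.31 ± 0.35, and Apoe, a lipid carrier of macrophages, by 1.83 ± 0.39. In WT their changes were 0.31 ± 0.20, 0.55 ± 0.33 and 0.84 ± 0.37, none called. Cyp27a1, another oxysterol enzyme, rose in WT by 1.72 ± 0.41 and had 0.89 ± 0.43 in Card9-/-, not called. Mylip, a ubiquitin ligase that limits cholesterol uptake, and Lpcat3, which remodels phospholipids, fell in Card9-/- (-0.75 ± 0.25 and -0.46 ± 0.16). In WT they had -0.233 ± 0.235 and -0.209 ± 0.153, neither called. Genes of macrophages moved with this list, 9 of 10 rising at day 7 in Card9-/- and 2 of 10 in WT, with list means relative to WT day 0 of 2.06 to 2.45 at day 7 and -0.99 to -0.41 at day 0 in Card9-/-, and 0.47 to 2.43 and -0.41 to 0.33 in WT. Their part in the result was not tested. The difference in change between genotypes was called with limma for 0 of the 11 genes and 0 of the 10 macrophage genes (0.00393% of all genes). At an unadjusted p under 0.05 there were 2 of 11 and 9 of 10, beside 2947 of 25463 genes. Calls in 1 genotype alone therefore do not show that the genotypes differed.

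**Figure D5:**
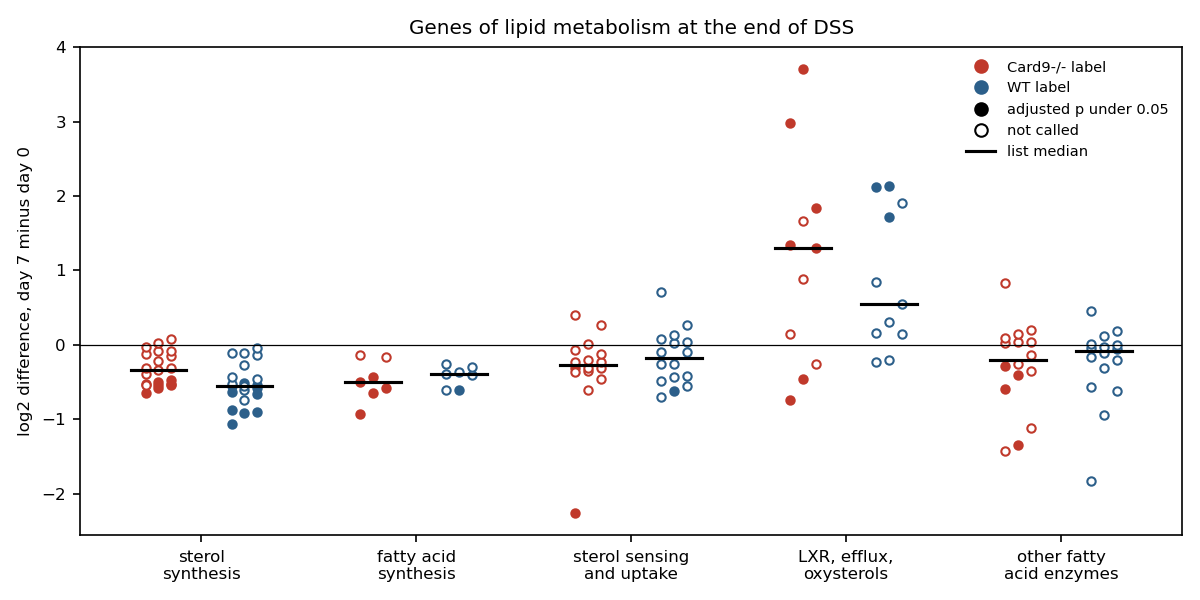
Log2 difference, day 7 minus day 0, of the genes of 5 lipid lists, Card9-/- label (red) left of WT label (blue) in each list. Each point is a gene, filled where its limma adjusted p was under 0.05, and the bar is the list median; the sterol medians are -0.34 in Card9-/- and -0.56 in WT, and the medians of the list of LXR, efflux and oxysterol genes are 1.31 and 0.55.

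Of 16 other fatty acid enzymes, 4 fell at day 7 in Card9-/- (12.7% of all genes were called lower) and 0 passed limma in WT (2.32%). In WT 3 had an unadjusted p under 0.05, beside 4337 of 25463 genes. The difference in change between genotypes was called for 0 of the 16 (0.00393% of all genes). In Card9-/-, Acsl3, which activates long fatty acids, fell by 1.34 ± 0.20 on the log2 scale and rose at day 12 by 0.99 ± 0.18. Oxsm and Mcat, of mitochondrial fatty acid synthesis, fell there by 0.60 ± 0.14 and 0.40 ± 0.14, and Elovl1 fell by 0.29 ± 0.09. Scd2, a desaturase close to Scd1, and Elovl7 rose at day 12 in Card9-/- by 1.02 ± 0.23 and 0.37 ± 0.11.

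Markers of the cells in the tissue were read at day 7 against day 0. Of all genes, 12.7% were called lower and 6.94% higher in Card9-/-, and 2.32% and 2.02% in WT. All 14 epithelial genes were well above background on every array. Of them Cdx2 (-1.26 ± 0.31), Krt18 (-0.53 ± 0.16) and Ezr (-0.58 ± 0.18) fell at day 7 in Card9-/-, while in WT Krt18 (-0.60 ± 0.15) and Ezr (-0.70 ± 0.17) fell and Elf3 rose (0.56 ± 0.16). The epithelial list mean, relative to WT day 0, ranged from -0.27 to 0.04 at day 7 and from 0.12 to 0.19 at day 0 in Card9-/-, and from -0.38 to 0.10 and from -0.05 to 0.09 in WT.

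Of 10 neutrophil genes, 7 rose at day 7 in Card9-/- and 4 in WT, and their list mean ranged from 4.49 to 5.18 at day 7 and from -0.75 to 0.53 at day 0 in Card9-/-, and from 1.78 to 4.57 and from -0.22 to 0.16 in WT. At day 0 only 3 or 4 of the 10 were well above background on an array. Red blood cell genes rose for 5 of 5 in Card9-/- and for 0 of 5 in WT (limma, 0 with an unadjusted p under 0.05), with list means of 2.29 to 5.40 at day 7 and -1.27 to -0.04 at day 0 in Card9-/-, and -0.69 to 1.28 and -0.99 to 0.69 in WT. Of 10 smooth muscle genes, 2 fell in Card9-/- and 0 passed limma in WT (0 with an unadjusted p under 0.05). The difference in change between genotypes was called with limma for 0 neutrophil, 0 red blood cell and 0 smooth muscle genes (0.00393% of all genes). At an unadjusted p under 0.05 there were 5 of 10, 5 of 5 and 1 of 10, beside 2947 of 25463 genes. Of 12 mitosis genes, 0 passed limma in either genotype. An unadjusted p under 0.05 was found for 2 in Card9-/- and 0 in WT, beside 7778 and 4337 of 25463 genes. The mitosis list mean was 0.41, -0.15, -2.47 and -0.91 on the Card9-/- day 7 arrays, lowest on replicate 3, which is also 1 of the arrays with acinar genes. It ranged from -0.36 to 0.11 at day 0 in Card9-/-. In WT it ranged from -0.62 to 0.07 at day 7 and from -0.09 to 0.06 at day 0. At day 12 it ranged from -1.56 to -0.79 in Card9-/- and from -0.20 to 0.12 in WT. Between genotypes at day 12, 0 of 12 mitosis genes passed limma and 12 had an unadjusted p under 0.05, beside 2253 of 25463 genes. In Card9-/- at day 12 against day 0, 0 passed and 7 had such a p, beside 4827 of 25463. The part of these cell types in the sterol and fatty acid values was not tested.

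Sterol synthesis follows the daily clock in liver, so clock genes were read beside it. Of 13 clock genes, 1 was called lower at day 7 in Card9-/- (background 12.7%). In WT 1 was lower and 1 higher (2.32% and 2.02%). Arntl, a core activator of the clock, fell at day 7 in both genotypes (log2 changes of -0.88 ± 0.27 in Card9-/- and -1.14 ± 0.26 in WT). At day 12 Dbp and Nr1d1, clock output genes, were lower than at day 0 in WT (-2.21 ± 0.52 and -1.62 ± 0.31). At that day Dbp was higher in Card9-/- than in WT by 3.19 ± 0.45 (limma adjusted p = 0.00345). Of the 13, 3 were called lower at day 12 than at day 0 in WT (background 0.601%). Between genotypes at day 12, 4 of 13 were called higher in Card9-/-, beside 0.0707% of all genes called in either direction. Against day 7, 2 of 13 rose and 4 fell at day 12 in WT, beside 124 of 25463 genes called. The labels do not state the hour at which colon was taken, and the part of the clock in the differences above was not tested.

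Second probes gave a check within genes. The 28 genes had 43 probes in all, and 12 of the genes had more than 1 kept probe. With each probe tested alone, Tm7sf2 fell in Card9-/- by both of its probes (-0.58 ± 0.12 and -0.59 ± 0.15), as did Stard4 (-0.54 ± 0.18 and -0.43 ± 0.14) and Acss2 (-0.93 ± 0.21 and -0.76 ± 0.22), and Mvk fell in WT by both (-0.56 ± 0.13 and -0.63 ± 0.13). In WT the second probes of Tm7sf2 (-0.44 ± 0.14, limma adjusted p = 0.0940), Nsdhl (-0.57 ± 0.16, adjusted p = 0.0522) and Hmgcs1 (-1.71 ± 0.62, adjusted p = 0.142) did not pass. That of Hmgcs1 was dim, well above background on 6 of 25 arrays. The second Hsd17b7 probe well above background on all arrays fell in WT (-0.58 ± 0.14, limma adjusted p = 0.021) where the one that stood for the gene did not pass (-0.60 ± 0.18). The second Nsdhl probe did not pass in Card9-/- (-0.17 ± 0.17), of 4 Acaca probes 1 passed there (-0.49 ± 0.15, adjusted p = 0.0311) and the one that stood for the gene did not (adjusted p = 0.0518), and the Fdft1 call in WT rested on its bright probe, the dim one having 0.15 ± 0.38. The Acaca probe that stood for the gene and another cover nearly the same bases (mm9 chr11:84215093-84215152 and 84215094-84215153), so they are not separate checks. The remaining Acaca probes were dimmer, with means of -3.996 and -2.66.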

How the data were processed

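Colon RNA of 25 mice was hybridised to single-colour Agilent arrays, 1 array per mouse, from 100 ng of RNA per the labels' protocols. Each deposited file holds spot intensity on a linear scale from Agilent Feature Extraction 10.7.3.1, as the submitters' processing notes and the headers name it. The processed intensity is background-subtracted and not normalized between arrays, per the file headers. The authors' deposited series table holds log2 values of 33418 probes (column medians 7.906 to 7.911, correlation with the processed signal of the same array 0.9832 to 0.9915). How it was normalized is not stated in the labels, and the table served as an alternative only.

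Values are log2 of the processed intensity minus the array's 75th percentile over the 59305 spots that are not controls. Spots with outlier flags were left out, and spots of a probe were averaged. Probes well above background on at least 3 arrays were kept (36283 of 55681), and the brightest probe stood for a gene. Of the probes, 27656 were named through their accession, 3722 through a symbol or synonym in the GRCm38.p6 gene table, and 24303 kept the name in the file. limma 3.58.1 (lmFit and eBayes, R 4.3.3, data.table version 1.17.8) fitted the 6 groups in one model, with Benjamini-Hochberg adjustment within each contrast over 25463 genes. The fit was tested on simulated data. Differences carry the SE of the fit. The number of arrays limits the precision. Figures were drawn with matplotlib 3.10.9.

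The members and the 17 gene lists (192 of 194 genes measured) were chosen with earlier results of these data known. Per-array values were given for Srebf1, Srebf2, Insig1 and for the 6 sterol and 3 fatty acid genes with the smallest mean p over both day 7 against day 0 contrasts; Hmgcs1, Scd1 and the day 12 values of Msmo1 were added after their values were seen. Of each other list, called genes with the smallest p were named, up to 4 in a contrast, and a few others beside them were added after their values were seen. Some genes of these lists are not reported here. The labels call the arrays replicates and do not say how animals were caged, so p-values measure the spread between these mice. Alternatives were other background correction, normalization, filters, probe rules, slide or replicate blocks, fits of fewer groups and leaving out arrays.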

Additional observations from a re-analysis of the deposited data

Results flagged for a closer look

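In 112 sets of 4 or 5 arrays (28 genes in the groups of days 7 and 12), 1 array lay apart from its group. The lowest Acss2 signal among the 4 Card9-/- day 7 arrays was 2.49, on replicate 4, and the nearest was 2.70, so that the gap made up 0.852 of the group's range. By chance about 1 set in 20 is expected to hold such an array.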

How the results depend on the processing

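Called sterol and fatty acid genes kept their sign under every alternative run, but many calls were lost. Of the calls at day 7 against day 0, 2 of 13 in Card9-/- (Tm7sf2 and Acss2) and 0 of 11 in WT held in every setting that kept all replicates or left out sets of arrays. For day 12 against day 7 in Card9-/-, 1 of 9 did (Tm7sf2). Sterol genes called lower at day 7 in Card9-/- numbered 8, and 3 with quantile normalization, 4 with the series table, 5 without a filter on dim probes, 5 with a replicate block, 1 with only the groups of the contrast, 2 without the 3 arrays high in anterior Hox genes, and 2 to 9 when each replicate was left out. In WT the 10 became 0 with only the groups of the contrast and 4 to 12 when each replicate was left out. Fatty acid genes lower at day 7 in Card9-/- numbered 5, and 2 with normexp, 3 with quantile normalization, 3 with the series table, 3 without the filter, 3 with slide as a block, 1 with only the groups of the contrast, 2 without the 4 arrays with acinar genes, 1 without the 3 arrays high in anterior Hox genes, and 2 to 4 when each replicate was left out. The 1 in WT became 2 with normexp or the series table, 0 without the filter or with only the groups of the contrast, and 0 to 1 when each replicate was left out. At day 12 against day 7 the 7 sterol genes higher in Card9-/- became 2 with only the groups of the contrast, 2 without the arrays with acinar genes and 6 to 9 when each replicate was left out. The 2 fatty acid genes became 1 with normexp or with only the groups of the contrast, 0 without the arrays with acinar genes, and 1 to 2 when each replicate was left out. The 1 sterol gene higher in WT became 2 with normexp, a filter of 13 arrays or eBayes with trend and robust settings. It became 0 with quantile normalization, the series table, no filter, the mean of a gene's probes, a replicate block, only the groups of the contrast, or without either set of arrays, and was 0 to 1 when each replicate was left out. The 1 sterol gene called in WT at day 12 against day 0 became 0 with normexp, quantile normalization, the series table, no filter, the mean of a gene's probes, every probe on its own, only the groups of the contrast or without the arrays with acinar genes, and 0 to 2 when each replicate was left out. Between genotypes, 0 genes were called in every setting but leaving out replicates at day 7, which gave 0 to 2 sterol and 0 to 1 fatty acid genes. A fit of only the groups of a contrast, and fits that leave out arrays, hold fewer samples, and no filter tests more genes; otherwise the cause was not tested.

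Arrays with the same replicate number did not deviate together (correlations of -0.444 to 0.682, median 0.036, and 4 of 25 arrays closest to their own number), so the numbers were not taken to pair the mice, and the replicate block changed no other count by more than 1.5 times. With 3 to 5 arrays in a group, small changes of single genes could not be detected with certainty. All 28 genes were well above background on all arrays, so dim signal does not limit them.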
